A study of Mus musculus with 34 samples.

Results

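The major histocompatibility complex of the mouse, the H2 complex, lies on chromosome 17, and its chromatin was measured here by the 2 histone marks of the series, H3K9me3 and H3K27ac. Every counted interval of the deposited tables whose start lies between positions 33900000 and 35450000 of chromosome 17 (GRCm38) was taken as a member. That gave 274 of the 248336 intervals in the list used by 3 of the 4 tables, and 134 of the 96988 intervals in the separate list of the remaining table. Of the 274 members, 81 lay at a promoter, 101 in the body of a protein-coding gene, 27 in another gene and 65 between genes. Of the 134, the numbers were 56, 41, 13 and 24.

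The complex holds the genes of antigen presentation. Class I molecules (H2-K, H2-D, H2-Q) present peptides cut by the immunoproteasome (Psmb8, Psmb9), carried into the endoplasmic reticulum by the transporter Tap1 and Tap2 and loaded with the help of tapasin (Tapbp). Class II molecules (H2-A, H2-E) present peptides taken up from outside the cell, and are normally made by antigen-presenting cells rather than by stem cells. Between the class II genes and H2-D lies the class III stretch, which holds complement, heat shock and cytokine genes among many genes with no role in immunity. H3K9me3 marks heterochromatin and H3K27ac marks active promoters and enhancers.

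The cells were mouse embryonic stem cells, grown in serum with LIF and inhibitors of MEK and GSK3, and the assay was chromatin immunoprecipitation of MNase-cut, formaldehyde-fixed chromatin. Inbred mouse strains were used, DBA/2J (D2) and C57BL/6J (B6), and the study asked whether a segment of chromosome 13 acts on chromatin elsewhere in the genome. In the first set, here called the separate lines, each strain had 3 cell lines, with 1 library a line for each mark. In the second set, here called the repeats, 4 genotypes had 1 cell line each and 2 or 3 technical repeats: B6, D2, B6-13D2 with the D2 segment of chromosome 13 in a B6 background (B6.D2-(rs30079041-rs51756099)/Bakr), and D2-13B6 with the B6 segment in a D2 background (D2.B6-(rs29224292-rs13469455)/Bakr in the sample labels, while the series text names rs51756099 as its end). The repeats of B6 and D2 came from B6 line 3 and D2 line 2 of the first set. A genotype is therefore 1 clone in the repeats, and their p-values measure only the spread between technical libraries. H3K27ac was precipitated with a different antibody in each set, so its levels are compared only within a set. Which alleles the congenic lines carry on chromosome 17 is not given in the sources used here.

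Library totals over the counted intervals ran from 1487862 to 2559262 for H3K9me3 and from 15444270 to 18272793 for H3K27ac in the separate lines, and from 1538145 to 2185977 and from 8735674 to 11543469 in the repeats. Members received 1049 to 2488 H3K9me3 counts and 20622 to 25483 H3K27ac counts a library in the separate lines, and 2093 to 3190 and 13672 to 16859 in the repeats. In each genotype 1 pair of H3K27ac repeats had a chi-square per degree of freedom under 1 (0.905 to 0.967). That pair was counted as 1 sample, which leaves 2 samples a genotype. Outside D2-13B6 the other pairs were at 1.01 to 1.03, so these 2 samples also differed by little more than sampling noise. D2-13B6 repeat 1 stood apart from the other repeats of its line, at 2.46 and 2.47 for H3K9me3 and 2.81 and 2.79 for H3K27ac, against 1.21 and 0.905 between repeats 2 and 3. Summed H3K27ac at intervals of embryonic stem cell genes was 1490 to 1680 counts per 1000000 counts of the library (CPM) in the separate lines and, in the repeats, 867 to 966 CPM in B6 and 1030 to 1220 CPM in the other 3 genotypes. All levels below are CPM, differences are log2 fold changes with their standard error, and adjusted p-values are from edgeR's quasi-likelihood test over every interval tested. An interval was called where that adjusted p fell below 0.05. In bulk chromatin, a smaller share of cells carrying a mark and less of it per cell cannot be told apart.

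Sequences of the stretches that the results turn on are shown first, from the C57BL/6J reference (RefSeq, GRCm38.p6). H2-Eb1 (ENSMUSG00000060586.11, chr17:34305867-34316674, plus strand) codes for the beta chain of the class II molecule H2-E. Its promoter, chr17:34305617-34305916, is printed because it lies in the class II stretch where H3K27ac differed both between strains and with the chromosome 13 segment. Capitals mark the X box core TAGCAAC at bases 158 to 164, and the Y box core ATTGG at bases 192 to 196 and, on the other strand as CCAAT, at 216 to 220; class II genes are known to carry X and Y boxes.
H2-Eb1 promoter: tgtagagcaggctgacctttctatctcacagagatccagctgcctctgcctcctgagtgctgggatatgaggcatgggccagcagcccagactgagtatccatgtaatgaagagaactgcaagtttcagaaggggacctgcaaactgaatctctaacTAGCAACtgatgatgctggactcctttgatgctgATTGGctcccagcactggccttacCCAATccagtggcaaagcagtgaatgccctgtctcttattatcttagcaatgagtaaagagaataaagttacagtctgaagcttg
Of 32851 promoters of this length, 3.659% hold TAGCAAC and 37.408% hold ATTGG on either strand. Of 8 class II genes with a sequence, 8 hold ATTGG and 3 hold TAGCAAC.

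The promoters of H2-D1 (chr17:35262844-35263143) and H2-Q6 (chr17:35424600-35424899), both class I genes on the plus strand, are printed because they lie in the stretch where H3K9me3 was higher in D2. Capitals mark the kappa B-like motif GGGNNTTCC, at bases 80 to 88 and 78 to 86, and ATTGG or CCAAT, at 175 to 179 and 198 to 202 in H2-D1 and at 172 to 176 and 196 to 200 in H2-Q6.
H2-D1 promoter: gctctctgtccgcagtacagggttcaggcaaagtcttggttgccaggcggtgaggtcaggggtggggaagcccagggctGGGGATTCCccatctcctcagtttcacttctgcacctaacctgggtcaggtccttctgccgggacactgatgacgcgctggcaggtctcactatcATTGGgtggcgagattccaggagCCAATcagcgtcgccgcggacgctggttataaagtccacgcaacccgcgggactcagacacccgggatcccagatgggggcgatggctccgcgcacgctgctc
H2-Q6 promoter: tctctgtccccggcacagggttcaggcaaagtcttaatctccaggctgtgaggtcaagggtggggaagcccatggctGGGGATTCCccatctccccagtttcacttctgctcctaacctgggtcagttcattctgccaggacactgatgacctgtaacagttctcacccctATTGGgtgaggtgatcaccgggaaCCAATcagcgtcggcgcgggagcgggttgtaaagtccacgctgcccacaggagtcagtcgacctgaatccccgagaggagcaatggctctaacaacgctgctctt
GGGNNTTCC is in 5.82% of all promoters, and in 5 of 6 class I genes with a sequence. The H2-D1 and H2-Q6 promoters are identical at 79.672% of aligned bases. Class I genes share long exact runs, such as 67 bases between the H2-Q6 and H2-Q7 promoters, close to the read length of 75 bases, so counts at single class I genes are uncertain.

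Further windows of 240 bases come from the centres of intervals inside H2-Eb1 (chr17:34310268-34310507, where no exon is annotated) and inside Btnl7-ps (chr17:34543531-34543770 and chr17:34546272-34546511), a butyrophilin-like pseudogene. They are printed because H3K27ac over these intervals went with the chromosome 13 segment in both backgrounds, and capitals mark bases that the reference masks as repeats.
H2-Eb1, interval centre: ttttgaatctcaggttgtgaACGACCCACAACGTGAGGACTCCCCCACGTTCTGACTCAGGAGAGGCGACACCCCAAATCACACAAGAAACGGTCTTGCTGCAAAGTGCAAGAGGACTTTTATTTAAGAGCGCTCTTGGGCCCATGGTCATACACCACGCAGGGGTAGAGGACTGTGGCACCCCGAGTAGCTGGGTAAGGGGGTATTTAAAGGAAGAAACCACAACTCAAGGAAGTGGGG
Btnl7-ps, middle: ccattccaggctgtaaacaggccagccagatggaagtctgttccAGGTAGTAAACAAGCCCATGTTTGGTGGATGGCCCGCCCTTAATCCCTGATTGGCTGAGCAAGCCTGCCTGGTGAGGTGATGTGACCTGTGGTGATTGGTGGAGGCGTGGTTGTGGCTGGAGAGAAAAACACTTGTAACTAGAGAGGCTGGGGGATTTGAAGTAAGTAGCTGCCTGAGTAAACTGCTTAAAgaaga
Btnl7-ps, near its 5′ end: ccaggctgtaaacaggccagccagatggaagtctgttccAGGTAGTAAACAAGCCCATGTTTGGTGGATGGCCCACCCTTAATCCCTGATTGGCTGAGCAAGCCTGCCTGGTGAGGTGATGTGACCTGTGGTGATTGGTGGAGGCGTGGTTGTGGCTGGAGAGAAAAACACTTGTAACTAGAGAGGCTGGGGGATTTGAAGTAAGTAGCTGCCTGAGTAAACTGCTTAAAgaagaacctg
Repeats cover 46.86% of the whole H2-Eb1 interval, and 50.86% and 62.66% of the Btnl7-ps intervals. These Btnl7-ps intervals share an exact run of 163 bases, longer than a read, so counts could be divided between them.

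Between the separate lines, D2 had more H3K27ac over H2-Eb1, the transporter genes Tap1 and Tap2 and the promoter of class I H2-Q4, less over the 3′ end of H2-Eb2 and over Btnl7-ps, and a difference of 0.00 at H2-D1. For H3K9me3, D2 was higher in the sum over the H2-D and H2-Q stretch, though not at each of its members, and lower inside H2-Eb1. H3K27ac passed the test at 50 of 133 members tested (31 higher and 19 lower in D2). Over all intervals tested 49.3% were called (24.3% higher and 25.0% lower), so the members' share was no larger than elsewhere. Their median difference was 0.09, against -0.01 for all intervals. H3K9me3 passed at 22 of 42 members tested (20 higher and 2 lower), against 34.6% called over all intervals (17.3% higher and 17.4% lower), with a median of 0.60 against 0.00. The other 232 members held too few H3K9me3 reads to test. Of the 22 called, 16 higher in D2 reached the count minimum in the D2 lines alone and 1 lower in D2 in the B6 lines alone, so that the minimum itself bears on their direction, and nothing is read from these counts or the median. For such intervals the difference is given as a description with no p, and levels are also given as sums over all members of a stretch. For H3K27ac this was so for 2 of the 50 called.

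**Figure D1:**
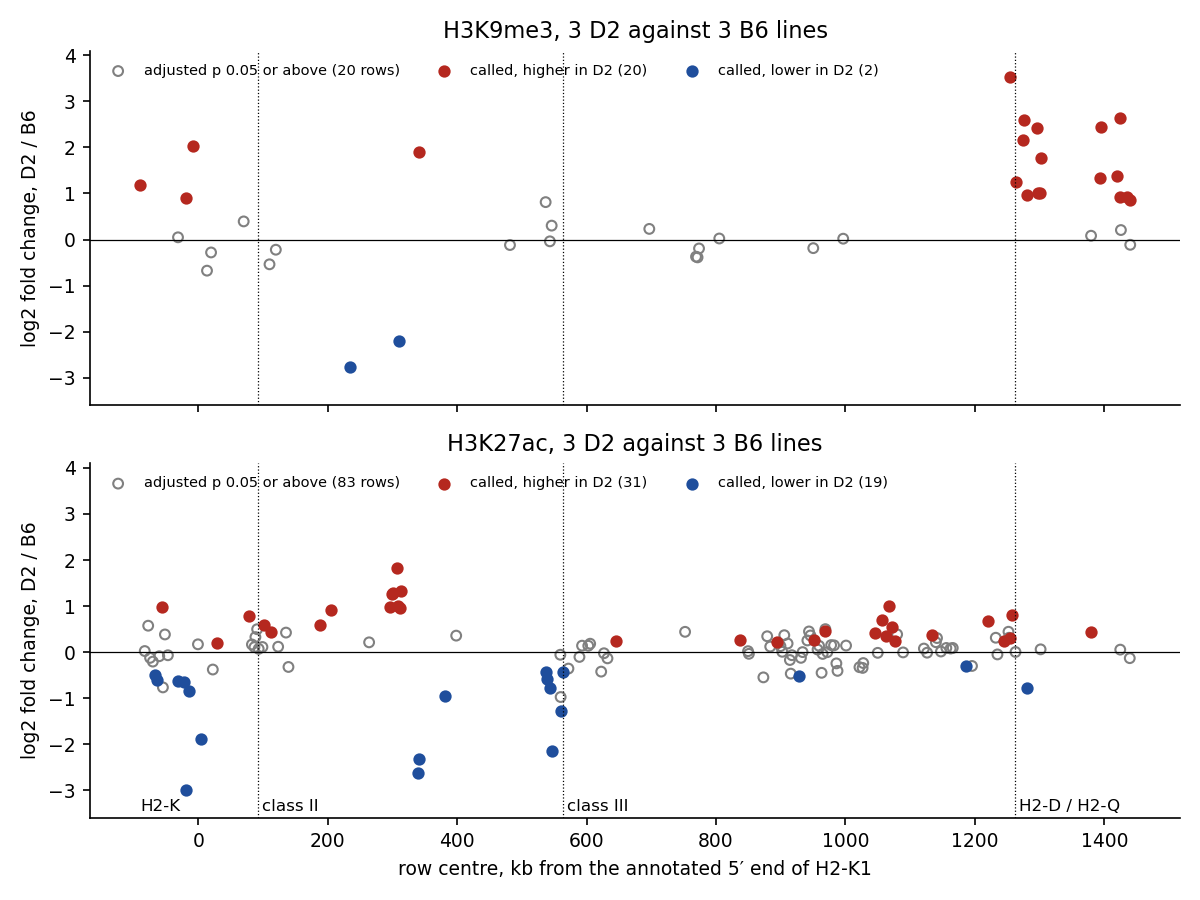
Difference between D2 and B6 (log2 fold change, y axis) at each tested member against its distance in kb from the annotated 5′ end of H2-K1 (x axis), for H3K9me3 (top) and H3K27ac (bottom) in the separate lines. Filled points are called intervals (rows in the plot) and dotted lines divide the H2-K, class II, class III and H2-D/H2-Q stretches. Of the 15 called H3K9me3 points in the H2-D and H2-Q stretch, all above 0, 11 reached the count minimum in D2 alone and had to lie there. H3K27ac has called intervals of both signs along the complex.

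H2-Eb1 had the largest H3K27ac rise from B6 to D2 among the called members of the separate lines. At its promoter interval (chr17:34304865-34308581) the B6 lines had 5.48, 5.1 and 5.13 CPM and the D2 lines 16.2, 21 and 18.1 CPM. Every D2 line was above every B6 line, with a log2 difference of 1.82 ± 0.12 (adjusted p = 1.5e-19). All 7 intervals from chr17:34295628 to chr17:34314718 were called higher, and higher in each D2 line, by 0.96 to 1.82. The first 3 of them lie in Gm20513 and outside H2-Eb1, and the promoter interval overlaps both genes. At chr17:34312864-34314718, inside the gene, the levels were 2.91, 3.9 and 3.67 CPM in B6 and 7.32, 9.43 and 9.33 CPM in D2.

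H3K9me3 went the other way within the gene. The interval chr17:34309188-34311588, which spans exons and introns of H2-Eb1, had 55.3, 50.1 and 51.7 CPM in the B6 lines and 14.1, 10.3 and 9.73 CPM in the D2 lines. These ranges lie far apart, and D2 was lower by a log2 difference of -2.21 ± 0.20 (adjusted p = 1.2e-11). The repeats, on the same clones as B6 line 3 and D2 line 2, had 38.7, 31.9 and 30.2 CPM in B6 and 2.45 and 5.25 CPM in D2.

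**Figure D2:**
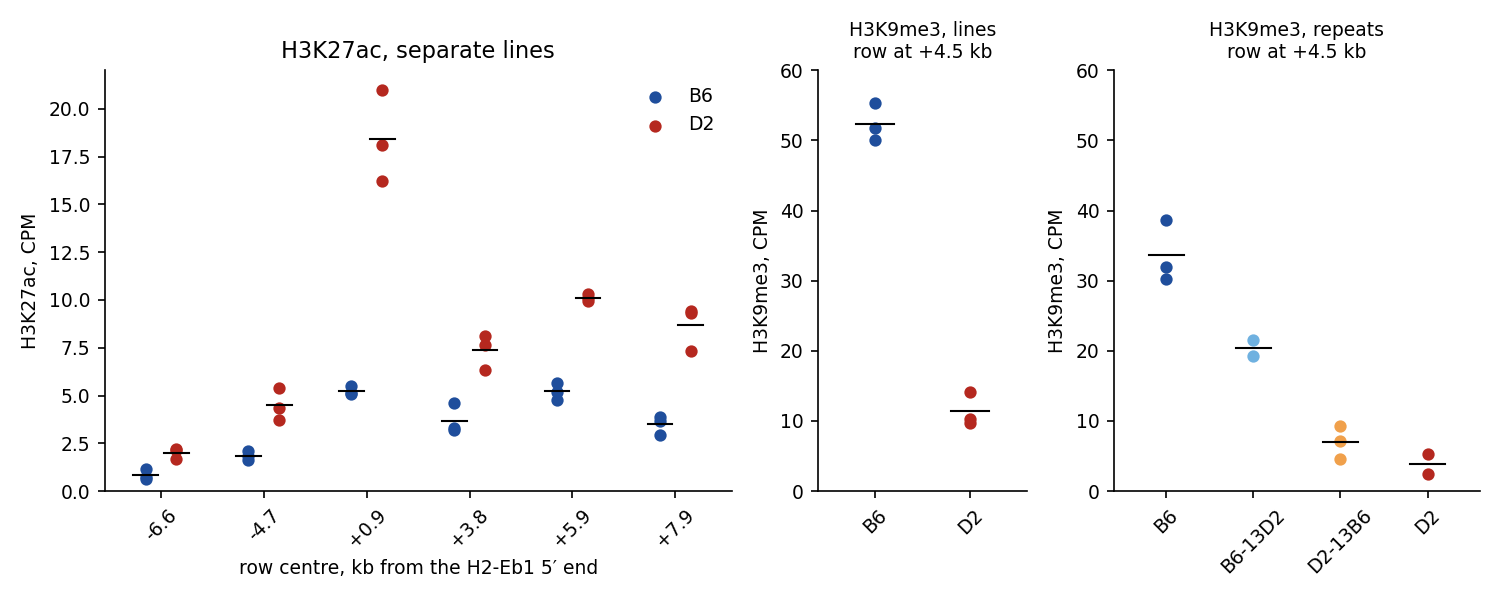
CPM in each library (points, y axis) of the separate B6 and D2 lines at 6 H3K27ac intervals, of which 4 overlap H2-Eb1 and the first 2 lie before it in Gm20513, and at the H3K9me3 interval of H2-Eb1, placed by distance in kb from the annotated 5′ end (x axis). H3K27ac is higher in every D2 line at each interval, while H3K9me3 is 50.1 to 55.3 CPM in B6 and 9.73 to 14.1 CPM in D2.

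The direction was not the same along the class II stretch. At the 3′ end of H2-Eb2, a class II gene beside H2-Eb1, H3K27ac at chr17:34339541-34340822 was 5.99, 5.22 and 5.32 CPM in B6 and 1.16, 0.661 and 0.864 CPM in D2. No library overlapped, and the interval fell in D2 by 2.63 on the log2 scale. H3K9me3 over the overlapping interval chr17:34340427-34341335 was 1.95, 3.34 and 3.15 CPM in B6 and 14.7, 10.3 and 7.41 CPM in D2, a difference of 1.90 ± 0.40, with the minimum reached in D2 alone. In the repeats the H3K27ac difference was also seen (3.99 and 4.73 CPM in B6, 0.491 and 0.446 CPM in D2), but H3K9me3 was 2.51, 3.14 and 2.02 CPM in B6 and 2.45 and 6.3 CPM in D2, which overlap.

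Beside H2-Ob, which codes for a chain of the class II accessory molecule H2-O, H3K9me3 at chr17:34234869-34235558 was 17.6, 15.4 and 10.7 CPM in the B6 lines and 2.02, 1.92 and 2.32 CPM in the D2 lines (-2.77 ± 0.37). This interval reached the count minimum in B6 alone. The repeats gave 12.6, 11 and 13.6 CPM in B6 and 3.67 and 4.2 CPM in D2, again without overlap. H2-Oa, which codes for the other chain of H2-O, had a promoter difference in H3K27ac of 0.50 (adjusted p = 0.056). H2-DMa, which helps load class II molecules, begins inside Brd2, a reader of acetylated histones on the opposite strand. The wide interval over both 5′ ends differed by 0.12 and did not pass the test. Of the 3 class II genes with a promoter interval in this table, 1 passed the test (H2-Eb1), against 49.3% of all intervals.

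Summed over all 75 members from H2-Oa to Notch4, H3K9me3 was 277 ± 10.9 CPM in B6 and 201 ± 35.1 CPM in D2 (SD, n = 3 lines each). Lines ran from 265 to 286 CPM and from 164 to 233 CPM, so the strains did not overlap. Much of this gap lay in the H2-Eb1 and H2-Ob intervals. With these taken out because they were the ones called lower, a choice made on the outcome, the other 73 members summed to 210 ± 15.9 CPM in B6 (192 to 220) and 188 ± 33.2 CPM in D2 (152 to 217), which overlap. In the repeats the same 73 summed to 286 to 371 CPM in B6, 324 to 339 CPM in B6-13D2, 296 to 322 CPM in D2-13B6 and 264 to 280 CPM in D2. There D2 lay below B6 without overlap, while D2-13B6 and B6 overlapped.

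The stretch of class I genes around H2-D and H2-Q held more H3K9me3 in D2. Over all 36 members from the H2-D1 promoter interval on, among the H2-D and H2-Q genes, H3K9me3 summed to 128 ± 13.4 CPM in the B6 lines and 292 ± 51.1 CPM in the D2 lines (SD, n = 3). The lowest D2 line, at 234 CPM, was above the highest B6 line, at 138 CPM. Of the 36, 18 held enough reads to test. Of these, 5 reached the minimum in both strains. D2 was called higher at 3 of the 5, chr17:35280086-35280940, chr17:35300590-35301230 and chr17:35301472-35302482, against 17.3% of all intervals, and was not called at intervals of H2-Q4 (0.08) and H2-Q6 (0.21). Of the other 12 called higher, 11 reached it in D2 alone. The D2 mean was below the B6 mean at 3 of the 36 members: the promoter interval of H2-Q2 (2.71 against 5.41 CPM), an interval of H2-Q3 (2.51 against 5.02 CPM) and chr17:35439946-35440684 in H2-Q7 (5.29 against 5.67 CPM). In the repeats the same sum was 211 ± 14.0 CPM in B6 (n = 3), 228 ± 14.3 CPM in B6-13D2 (n = 2), 374 ± 11.1 CPM in D2-13B6 (n = 3) and 424 ± 3.05 CPM in D2 (n = 2). Both lines with a D2 background were thus above both with a B6 background in the sum. The H2-Q2 and H2-Q3 intervals were again lower in D2 than in B6 (8.05 against 11.6 CPM and 5.16 against 7.17 CPM).

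At the 3′ end of Ddx39b, an RNA helicase gene just before H2-D1, H3K9me3 at chr17:35252574-35256145 was 0.651, 3.34 and 1.26 CPM in B6 and 24.8, 23.8 and 13 CPM in D2. The groups did not overlap, and the difference was 3.52 ± 0.41 at an interval that reached the count minimum in D2 alone. In the repeats it was 4.52, 4.19 and 5.55 CPM in B6, 5.17 and 3.73 CPM in B6-13D2, 26.7, 26.3 and 31.2 CPM in D2-13B6, and 19 and 23.1 CPM in D2. Within the stretch, chr17:35276158-35276958 had 3.26, 0 and 4.41 CPM in B6 and 17.7, 15.7 and 14.8 CPM in D2, a difference of 2.60 ± 0.39, with the minimum reached in D2 alone. The repeats kept these levels apart as well, at 3.52, 3.14 and 3.02 CPM in B6 and 12.2 and 9.98 CPM in D2.

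At H2-Q6, a class I gene outside the classical set, the interval chr17:35425101-35425402 had 1.3, 0.668 and 1.89 CPM in B6 and 7.58, 9.2 and 8.34 CPM in D2. With B6 at the floor of 3 counts a library, D2 was at least 4.3-fold higher, at an interval that reached the minimum in D2 alone. The promoter interval of H2-Q1, another such gene, was 4.52, 4.19 and 3.02 CPM in B6, 3.29 and 3.27 CPM in B6-13D2, 5.59, 8.75 and 8.64 CPM in D2-13B6, and 12.2 and 11.6 CPM in D2. Its parental difference was 1.59 ± 0.38, with the B6 libraries below the count minimum.

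The classical class I promoters were less regular. H2-D1 (chr17:35262303-35264465), whose sequence is printed above, had 4.56, 6.68 and 1.26 CPM of H3K9me3 in B6 and 10.6, 10.7 and 8.34 CPM in D2, without overlap, and a difference of 1.26 ± 0.38, with the minimum reached in D2 alone. Without B6 line 3 the difference was 0.76, and in the repeats it was 0.38 and did not pass. H2-K1, at the other end of the complex, went the other way in the repeats: its promoter interval chr17:33999476-34001034 had 10, 12 and 11.1 CPM in B6, 11.8 and 10.7 CPM in B6-13D2, 5.59, 2.57 and 1.92 CPM in D2-13B6, and 1.84 and 3.15 CPM in D2. The mean of both D2-background lines was lower by a log2 difference of -1.94 ± 0.30, with the minimum reached in the B6-background lines alone. Its separate lines had 7.16, 4.01 and 3.78 CPM in B6 and 4.04, 4.22 and 4.63 CPM in D2, which overlap, and were too low to test.

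**Figure D3:**
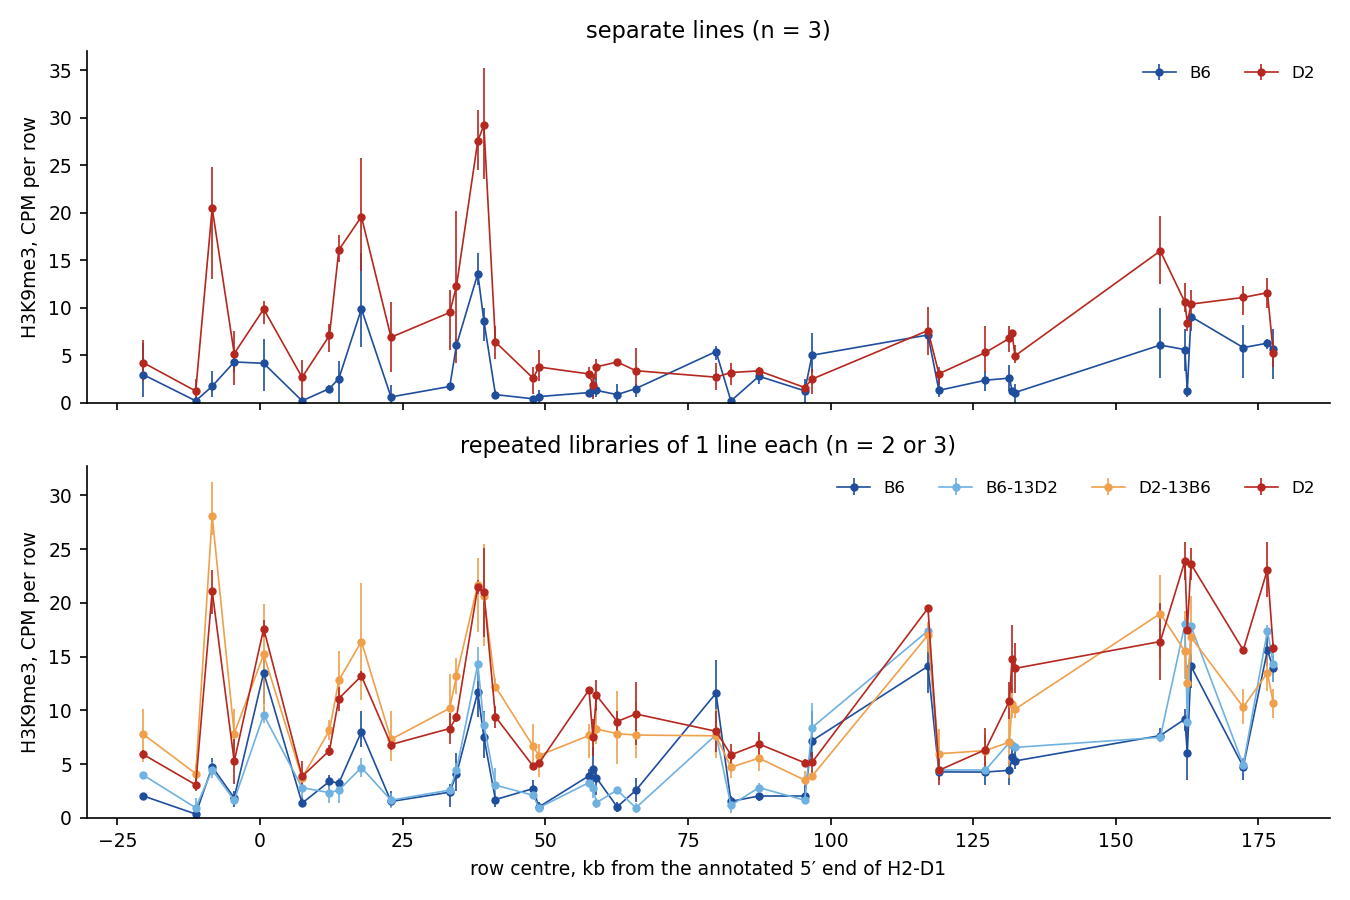
Mean H3K9me3 (CPM, y axis) of each group at the members of the H2-D and H2-Q stretch against distance in kb from the annotated 5′ end of H2-D1 (x axis), in the separate lines and in the repeats, with bars from the lowest to the highest library and lines joining neighbouring members only. In the separate lines D2 lies above B6 at 33 of the 36 members from the H2-D1 promoter interval on. In the repeats D2-13B6 lies below B6 at 4 of the 36, at H2-Q2, H2-Q3 and 2 intervals of H2-Q7. The B6-13D2 mean lies above that of D2-13B6 at these 4, at the promoter interval of H2-Q4 and at intervals of H2-Q6.

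For H3K27ac at class I promoters, H2-D1 in the separate lines had 5.02, 5.73 and 6.58 CPM in B6 and 5.01, 5.68 and 6.57 CPM in D2, a difference of 0.00 (adjusted p = 0.99). H2-K1 had 5.99, 5.6 and 6.58 CPM in B6 and 7.57, 6.06 and 6.85 CPM in D2, which overlap. Of 5 class I promoters H2-Q4 passed, against 49.3% of all intervals, at 6.9, 7.3 and 7.53 CPM in B6 and 8.92, 9.81 and 10.4 CPM in D2 (0.43 ± 0.12, adjusted p = 0.0025). Over the 6 members of the H2-D and H2-Q stretch in this table, H2-D1 included, summed H3K27ac was 27.1 ± 2.25 CPM in B6 and 27.2 ± 2.98 CPM in D2 (SD, n = 3). In the repeats, over the same 36 members as for H3K9me3, the sum was 41.4 ± 3.03 CPM in B6, 34.8 ± 1.78 CPM in B6-13D2, 48.4 ± 11.9 CPM in D2-13B6 and 61.0 ± 14.5 CPM in D2 (SD, n = 2), where D2-13B6 and B6 overlapped. Of the 34 tested, 18 had more H3K27ac in the D2 background and 1 had less, against 20.3% and 17.8% of all intervals. All reads were placed on the C57BL/6J reference, and mouse haplotypes differ in their class I genes in this stretch. The part of read placement and gene copy number in these values was not tested.

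Antigen processing genes had more H3K27ac in D2 where they differed. Psmb9 and Tap1 share a promoter interval (chr17:34186747-34188653), which had 5.36, 5.66 and 5.95 CPM in B6 and 8.6, 8.05 and 8.87 CPM in D2. The strains did not overlap, and the difference was 0.59 ± 0.13 (adjusted p = 1.4e-04). At the Tap2 promoter (chr17:34204238-34206098) the levels were 3.65, 3.71 and 3.61 CPM in B6 and 7.64, 6.56 and 6.68 CPM in D2, a difference of 0.92 ± 0.15 (adjusted p = 5.8e-07). Tapbp, at the high level of 40.7, 46.3 and 47.8 CPM in B6 and 46.6, 46.2 and 43.9 CPM in D2, overlapped and differed by 0.02 (adjusted p = 0.82). The 4 antigen processing genes with an interval thus fell on 3 intervals, of which 2 were higher and 0 lower, against 24.3% and 25.0% of all intervals.

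The repeats showed the same direction for these genes. The Psmb9 and Tap1 interval had 4.72 and 2.86 CPM in B6, 4.25 and 4.17 CPM in B6-13D2, 5.79 and 7.25 CPM in D2-13B6, and 9.11 and 8.48 CPM in D2. D2 was above B6 by 1.13 ± 0.21, and the mean of both D2-background lines was above that of the B6-background lines by 0.89. Tap2 was 2.51 and 2.09 CPM in B6 and 4.31 and 4.13 CPM in D2, a difference of 0.84 ± 0.26.

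Genes of the same pathway on other chromosomes were counted alongside, 18 of which had a promoter interval in the separate lines. Of these, 5 had more H3K27ac in D2, with 24.3% of all intervals higher: Erap1, which trims peptides for class I (0.50), Rfxap, a part of the factor that binds the X box (0.46), and the chaperones Canx (0.20), Pdia3 (0.19) and Calr (0.19). Cd74, the class II invariant chain (-1.04), and Psmb10, a subunit of the immunoproteasome (-0.60), were lower. In the repeats 11 of 18 were higher and 0 lower for D2 against B6, with 14.7% and 13.4% of all intervals. Their median was 0.56 there and 0.50 between backgrounds, against 0.50 and 0.48 for the antigen processing genes of the complex. The rise in the repeats was thus not particular to the genes of the complex. H3K9me3 at B2m, the light chain of class I, was 2.6, 2 and 3.15 CPM in the B6 lines and 17.7, 11.5 and 9.73 CPM in the D2 lines (2.27 ± 0.39). The repeats did not show this: B2m had 6.03, 7.85 and 3.02 CPM in B6 and 10.4 and 6.83 CPM in D2, which overlap. At Psmb10, H3K9me3 was 1.95, 1.34 and 0.63 CPM in the B6 lines and 5.56, 6.13 and 8.8 CPM in the D2 lines. Its repeats had 5.02, 8.9 and 6.55 CPM in B6 and 9.18 and 9.98 CPM in D2. At both genes the separate B6 lines lay below the count minimum, which bears on the direction.

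At the start of the complex, beside H2-K1, the predicted gene Gm4152 had the largest fall in H3K27ac among called members of the separate lines. At chr17:33979536-33982344 B6 had 15.8, 16.8 and 15.5 CPM and D2 had 1.41, 2.37 and 2.19 CPM, far apart, with a difference of -2.99 ± 0.14 (adjusted p = 8.1e-25). In the repeats, the overlapping interval had 11.2 and 11.9 CPM in B6, 8.5 and 9.42 CPM in B6-13D2, 1.2 and 5.01 CPM in D2-13B6, and 3.82 and 3.9 CPM in D2. The level thus followed the strain background.

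In the class III stretch, from Notch4 up to the H2-D1 promoter interval, H3K9me3 over all 123 members summed to 226 ± 38.7 CPM in B6 and 256 ± 50.9 CPM in D2 (SD, n = 3), and the lines overlapped. Of its 8 members tested, 1 was called, the Ddx39b interval described above, against 34.6% of all intervals. In the repeats the same 123 members summed to 340 ± 9.39 CPM in B6 (n = 3), 327 ± 5.75 CPM in B6-13D2 (n = 2), 578 ± 62.0 CPM in D2-13B6 (n = 3) and 481 ± 63.7 CPM in D2 (n = 2), and lines of D2 background did not overlap lines of B6 background. H3K27ac over its 74 members summed to 817 ± 14.4 CPM in B6 and 897 ± 6.93 CPM in D2, without overlap. Among its genes, the interval shared by complement C2 and the H3K9 methyltransferase gene Ehmt2 was higher in D2 by 0.21 (adjusted p = 0.014), and Bag6, a chaperone gene, by 0.36. Lower in D2 were the promoters of Notch4, a Notch receptor gene (-0.44, adjusted p = 0.0032), and Lst1, a gene of leukocytes (-0.31, adjusted p = 0.0009). The heat shock genes Hspa1b (0.14) and Hspa1a with Hspa1l (-0.00, 1 shared interval) and the lymphotoxin gene Ltb (-0.30, adjusted p = 0.12) did not pass.

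Across the repeats, the mean of both lines of each background was compared as well, which does not depend on which chromosome 13 segment a line carries. For H3K27ac, 97 of 224 members tested were called (72 with more and 25 with less in lines of D2 background), against 38.1% of all intervals tested (20.3% higher and 17.8% lower). The members' median was 0.17 against 0.00. Among promoter members, 43 of 72 tested were higher and 1 lower. Of 18 pathway genes on other chromosomes with a promoter interval, 13 were higher and 0 lower. The share over all promoter intervals was not computed, so nothing is read from the promoter count. For H3K9me3, 62 of 144 members tested were called (48 higher and 14 lower), against 26.0% of all intervals (11.1% higher and 14.9% lower), with a median of 0.40 against 0.03. Of the 62, 29 higher and 9 lower reached the count minimum only in the background where the mark was high, as did 13 higher and 4 lower of the 97 for H3K27ac. D2 against B6 alone gave 69 calls for H3K27ac (46 higher and 23 lower), with 28.1% called over all intervals (14.7% higher and 13.4% lower). For H3K9me3 it gave 35 (28 higher and 7 lower), with 11.4% over all intervals (4.42% higher and 6.99% lower). Of the 35, 18 higher and 6 lower reached the minimum only in their high strain, so nothing is read from that count either. Without D2 repeat 1 the 35 became 21, and without D2 repeat 2 they became 18. The repeats used a clone of each strain that is also among the separate lines.

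The chromosome 13 segment was then compared within each background. With the D2 segment, H3K27ac was higher over H2-Eb1 and lower over Btnl7-ps and the promoter of Lst1, whichever strain gave the background. The alleles these congenic lines carry on chromosome 17 near these genes are not given in the sources used here, so a difference between lines at these genes and the chromosome 13 segment cannot be told apart. In the B6 background (B6-13D2 against B6), 26 of 224 members were called, 6 higher and 20 lower, against 13.0% of all intervals (7.6% higher and 5.4% lower). With library totals in place of normalization factors, 51 were called, 5 of them higher and 46 lower. In the D2 background (D2 against D2-13B6), 14 were called, 7 higher and 7 lower, against 6.67% of all intervals (1.43% higher and 5.24% lower). Of the 26, 1 higher and 9 lower reached the count minimum only in the line where the mark was high, as did 2 of the 14. The averaged comparison of both backgrounds, added after the data were seen, called 19 members, 9 higher and 10 lower, against 11.7% of all intervals (5.27% higher and 6.4% lower). The effect of the segment differed between backgrounds at 7 members (3.12%), against 5.3% of all intervals (3.93% higher and 1.37% lower), all lower in the B6 background; the number was 0 with DESeq2, 0 without D2 repeat 2 and 19 without D2-13B6 repeat 1. Without B6-13D2 repeat 2 the first number was 16, and without B6 repeat 3 it was 15. By direction, 2.68% of members were higher and 8.93% lower on B6, while 3.12% rose and 3.12% fell on D2. The comparisons use separate libraries and share 9 called members, 34.6% of the 26 and 64.3% of the 14, with the same direction in all 9. Over all intervals off chromosome 13 they share 4454, 19.1% and 37.8% of each list, 3689 of them with the same direction.

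**Figure D4:**
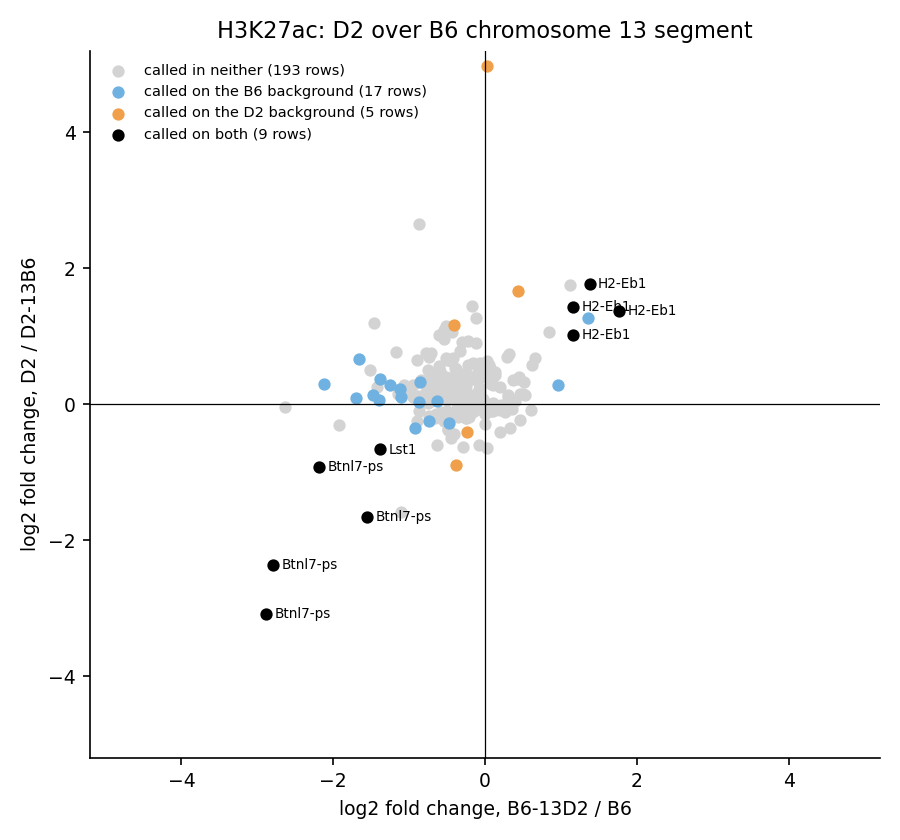
H3K27ac difference of the D2 from the B6 segment of chromosome 13 (log2 fold change) in the B6 background (x axis) and in the D2 background (y axis) for the 224 tested members, coloured by where the interval was called. The 9 called in both lie in the upper right (4 intervals of H2-Eb1) and the lower left (4 of Btnl7-ps and Lst1), and the topmost point has D2-13B6 libraries at 0 counts.

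At H2-Eb1 the 4 intervals called in both backgrounds were higher with the D2 segment. The interval at the gene's start (chr17:34305513-34306308), over the printed promoter, had 1.87 and 0.77 CPM in B6, 4.07 and 3.62 CPM in B6-13D2, 1.2 and 1.14 CPM in D2-13B6, and 4.25 and 3.57 CPM in D2. Lines with the D2 segment did not overlap those with the B6 segment, and the difference was 1.38 ± 0.28 in B6 (adjusted p = 0.0005) and 1.77 ± 0.31 in D2 (adjusted p = 4.0e-05). The strain background itself gave -0.16 there, which did not pass. In the next interval, chr17:34307717-34308588, the levels were 1.38 and 1.65, 5.02 and 4.98, 4.49 and 3.81, and 11.5 and 9.37 CPM in the same order of lines. Segment (1.76 ± 0.26 in B6, 1.37 ± 0.20 in D2) and background (1.27 ± 0.16) both passed at that interval.

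The interval chr17:34309188-34311588 inside the gene, whose centre is printed above, had 22.1 and 25 CPM in B6, 53.4 and 50.5 CPM in B6-13D2, 10.2 and 16 CPM in D2-13B6, and 27.8 and 26.4 CPM in D2. The D2 segment went with a level higher by 1.16 ± 0.14 in B6 and 1.01 ± 0.16 in D2, and the D2 background with a lower one, by a log2 difference of -0.86 ± 0.11. The parental strains, which differ in both, differed by 0.22 and did not pass. At the last of the 4 intervals, chr17:34313330-34314780, the segment gave 1.16 ± 0.22 and 1.43 ± 0.22. All 4 kept their calls in both comparisons under each of the 19 alternative settings run.

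H3K9me3 over the same interval was 38.7, 31.9 and 30.2 CPM in B6, 19.3 and 21.5 CPM in B6-13D2, 9.32, 4.63 and 7.2 CPM in D2-13B6, and 2.45 and 5.25 CPM in D2. The background difference was -2.31 ± 0.23 (adjusted p = 2.0e-16). With the D2 segment the level was -0.72 (adjusted p = 0.094) in B6 and -0.80 (adjusted p = 0.52) in D2, neither of which passed.

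Some markers of other cell types differed between these lines. Summed H3K27ac at fibroblast genes, 4 of 6 with an interval, was 8.36 to 10.2 CPM in B6, 16.4 to 18.2 CPM in B6-13D2, 12.6 to 27.3 CPM in D2-13B6 and 23.5 to 29.1 CPM in D2, and trophoblast genes, 4 of 4, were at 14.4 to 17.1 CPM in B6 and 26.0 to 34.4 CPM in the other lines. Blood cell genes, 3 of 6 with an interval, were at 5.02 to 8.48 CPM in all 4 genotypes, while endoderm genes, 2 of 4, were at 6.6 to 8.36 CPM in B6, 5.85 to 6.25 CPM in B6-13D2, 8.93 to 10.6 CPM in D2-13B6 and 9.05 to 9.71 CPM in D2, with no overlap between backgrounds. In the separate lines blood cell genes, 2 of 6 with an interval, were at 10.8 to 11.6 CPM in B6 and 15.0 to 17.5 CPM in D2, and trophoblast genes, 3 of 4, at 67.2 to 75.6 CPM and 76.3 to 79.4 CPM. Fibroblast genes there, 1 of 6 with an interval, overlapped at 1.08 to 1.58 CPM in B6 and 0.963 to 1.67 CPM in D2. Endoderm genes, 1 of 4, overlapped too, at 5.65 to 5.85 CPM and 5.47 to 6.03 CPM. Stem cell genes, as given above, were lower in B6 than in the other genotypes of the repeats. The part of these shifts in the H2-Eb1 differences was not tested.

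Btnl7-ps (ENSMUSG00000061728.5, chr17:34532877-34547651, minus strand) is an unprocessed pseudogene of the butyrophilin-like family, whose members are related to regulators of T cells. Near its 5′ end, at chr17:34546031-34546753, H3K27ac was 5.26 and 4.18 CPM in B6, 0.411 and 1.09 CPM in B6-13D2, 6.09 and 5.34 CPM in D2-13B6, and 0.655 and 0.669 CPM in D2. Lines with the D2 segment were all below lines with the B6 segment, by a log2 difference of -2.88 ± 0.32 in B6 and -3.08 ± 0.33 in D2, at an interval that reached the count minimum only in lines with the B6 segment. At chr17:34543156-34544146, the other printed interval, the levels were 11.4 and 12 CPM in B6, 3.7 and 4.35 CPM in B6-13D2, 13.2 and 13 CPM in D2-13B6, and 4.47 and 3.57 CPM in D2. The differences were -1.55 ± 0.19 in B6 (adjusted p = 2.3e-08) and -1.66 ± 0.19 in D2 (adjusted p = 3.8e-09).

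Further into the pseudogene, chr17:34539564-34540114 had 6.59 and 10 CPM in B6, 1.23 and 0.996 CPM in B6-13D2, 4.99 and 4.9 CPM in D2-13B6, and 0.982 and 0.893 CPM in D2. There the segment gave -2.79 ± 0.26 and -2.37 ± 0.30. At chr17:34536478-34537698 the fall was -2.19 ± 0.23 in B6 and -0.92 ± 0.22 in D2, and these differed from each other by -1.27 ± 0.33 (adjusted p = 0.0138). DESeq2 gave an adjusted p of 0.077 for the difference in D2. The last interval, chr17:34535942-34536405, was called in neither background. The strain background was called at none of the 5 intervals, with values from -0.48 to 0.33 at the 4 called for the segment.

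**Figure D5:**
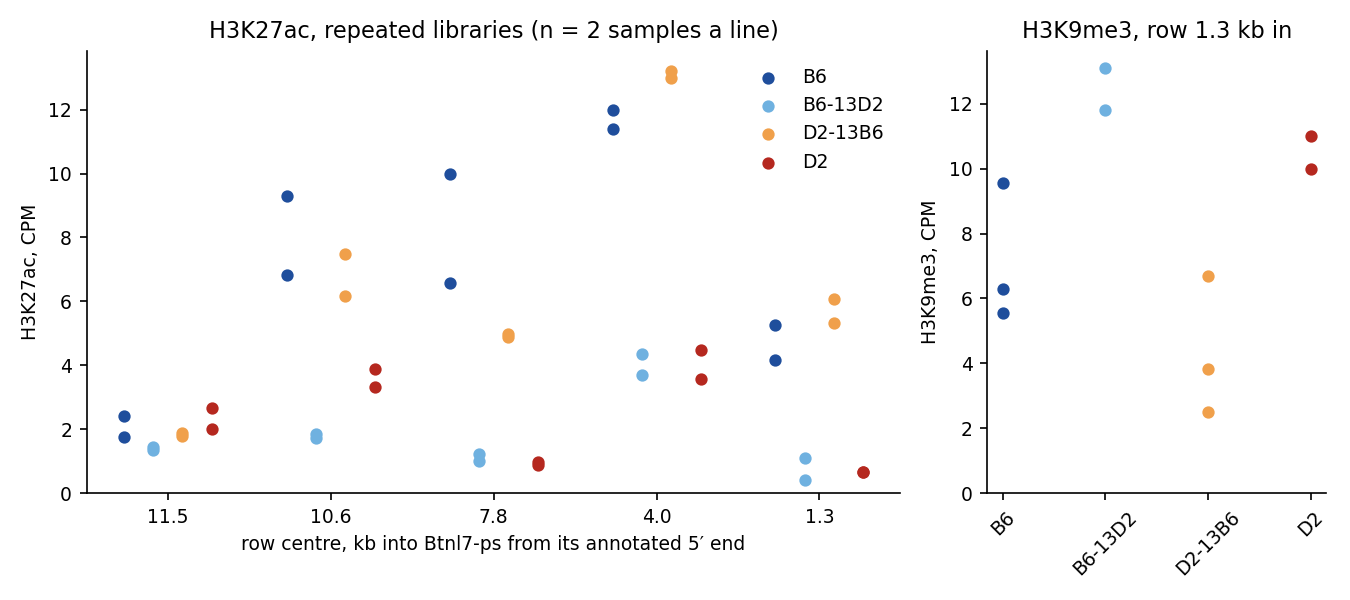
H3K27ac (CPM, y axis) in each sample of the 4 genotypes of the repeats at 5 intervals of Btnl7-ps, placed by distance in kb into the gene from its annotated 5′ end (x axis), and, to the right, H3K9me3 at the interval nearest that end. At 4 of the 5 intervals the lines with the D2 segment lie below the lines with the B6 segment, such as 0.411 to 1.09 against 4.18 to 6.09 CPM near the 5′ end, and H3K9me3 there is 9.98 to 13.1 against 2.49 to 9.55 CPM.

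The separate lines, with the parental segments only, showed the same order. At chr17:34545692-34547047 H3K27ac was 4.96, 5.35 and 4.11 CPM in B6 and 0.834, 1.16 and 1.21 CPM in D2, without overlap (-2.15 ± 0.21, adjusted p = 1.5e-12). The next intervals, chr17:34542821-34544791 and chr17:34538965-34540919, differed by -0.77 and -0.59.

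H3K9me3 near the 5′ end of Btnl7-ps was higher with the D2 segment when the backgrounds were averaged, a comparison added after the data were seen. Levels were 9.55, 6.28 and 5.55 CPM in B6, 11.8 and 13.1 CPM in B6-13D2, 2.49, 6.69 and 3.84 CPM in D2-13B6, and 11 and 9.98 CPM in D2, so that the lines with the D2 segment did not overlap the others. The mean difference was 1.01 ± 0.25 (adjusted p = 0.0059, and 0.153 with DESeq2). Within a background it was 0.79 (adjusted p = 0.34) in B6 and 1.23 (adjusted p = 0.074) in D2. The separate lines, at 11.1, 18.7 and 10.1 CPM in B6 and 14.7, 15.7 and 18.5 CPM in D2, overlapped and differed by 0.30 (adjusted p = 0.385).

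The promoter of Lst1 (chr17:35188191-35190321), in the class III stretch, had 12.5 and 14.2 CPM of H3K27ac in B6, 4.75 and 5.53 CPM in B6-13D2, 10.8 and 8.06 CPM in D2-13B6, and 6.11 and 5.36 CPM in D2. No line with the D2 segment reached a line with the B6 segment, and the differences were -1.38 ± 0.18 in B6 and -0.66 ± 0.19 in D2 (adjusted p = 0.022). Without D2-13B6 repeat 1, the library that stood apart, the difference in D2 was -0.49 (adjusted p = 0.149), without D2 repeat 2 it was -0.60 (adjusted p = 0.216), and with DESeq2 its adjusted p was 0.137.

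Members called in a single background included the 3′ end of H2-Eb2, where H3K27ac was 9.18 and 7.25 CPM in B6-13D2 against 3.99 and 4.73 CPM in B6 (0.97 ± 0.20), while both D2-background lines were at 0.381 to 0.491 CPM. The interval of Ddah2, a gene of the nitric oxide pathway, had 16.4 and 10.8 CPM in D2-13B6 and 6.33 and 8.26 CPM in D2 (-0.90 ± 0.20), and 4.28 and 2.86 CPM in B6 and 2.83 and 2.99 CPM in B6-13D2. Whether these effects differ between backgrounds did not pass the test at either interval.

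For H3K9me3 the segment had few calls among members: 1 of 144 tested in the B6 background, against 1.68% of all intervals (1.23% higher and 0.451% lower), and 1 in the D2 background, against 2.17% (1.74% higher and 0.428% lower). The first was the H2-Q6 promoter (chr17:35424681-35424989), with 8.04, 9.42 and 10.1 CPM in B6, 17.4 and 18.7 CPM in B6-13D2, 14.3, 12.9 and 19.2 CPM in D2-13B6, and 25.7 and 22.1 CPM in D2. The groups did not overlap within either background, and the difference was 0.97 ± 0.28 in B6 (adjusted p = 0.0499) and 0.61 (adjusted p = 0.29) in D2. The second was an interval of Notch4 (chr17:34585880-34588289), with 6.21, 12.9 and 10.6 CPM in D2-13B6 and 6.12 and 1.58 CPM in D2, so that the groups nearly met. The difference was -1.44 ± 0.43 at an interval that, of these 2 lines, reached the count minimum in D2-13B6 alone. Both calls were lost with library totals and with DESeq2, and in each comparison leaving out any of 7 of the 10 libraries left 0 calls. With the backgrounds averaged, 3 members were called, 2 higher and 1 lower, against 2.97% of all intervals (2.22% higher and 0.749% lower): these intervals of H2-Q6 and Notch4 and that of Btnl7-ps. The difference between backgrounds was called at 0 of 144 members by edgeR, against 0.364% of all intervals, with 6 members at an unadjusted p below 0.05 and 0 by DESeq2.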

How the data were processed

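H3K9me3 and H3K27ac were measured by chromatin immunoprecipitation and sequencing in 34 libraries of 12 groups, in 4 deposited tables of raw read counts per interval, with duplicate reads removed per the file headers. The submitters' processing notes name mm10 (GRCm38), Trimmomatic 0.39, HISAT2 2.2.1, MACS 1.4.2, bedtools and edgeR. Counts at near-identical genes depend on how reads with several matches were placed, which is not given in the sources used here. In the tables, 2 value columns that matched no sample were not used.

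Each table was fitted whole with edgeR 4.0.16 in R 4.3.3 (filterByExpr at 10 counts, TMM factors, quasi-likelihood test, Benjamini-Hochberg adjustment over all tested intervals, threshold 0.05). The separate lines were fitted as D2 against B6, and the 4 genotypes of the repeats in 1 model without a replicate block. CPM use TMM-adjusted library sizes. The pair of H3K27ac repeats of each genotype with a chi-square per degree of freedom under 1 was summed. The fits were tested on simulated data. An interval was assigned to a gene where it lay within 1 kb of the 5′ end annotated in GENCODE M21, and named genes were those of gene lists for the complex, the 5 called members with the largest difference in each direction whose groups did not overlap, and the 5 members with the most H3K9me3 per kb. The members, lists and tests were chosen with earlier results of these data known. Alternatives were RLE scaling, library totals, DESeq2 1.42.0, other count filters, repeats counted singly, the replicate block and leaving out each library. Counting error sets the precision at low levels: in libraries of H3K9me3, a member at 1 CPM holds only a few reads.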

Additional observations from a re-analysis of the deposited data

Results flagged for a closer look

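At 7 members the H3K27ac effect of the D2 segment differed between the B6 and the D2 background by the test of that difference (edgeR's quasi-likelihood test, adjusted p below 0.05). In each it was lower in the B6 background. Over all intervals 5.3% passed this test, 1.37% in that direction, against 7 of 224 members. The number was 0 with DESeq2 and 0 without D2 repeat 2, and 19 without D2-13B6 repeat 1, so the calls depend on single libraries.

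In the promoter interval of Psmb8, an immunoproteasome gene, H3K27ac was 2.51 and 1.76 CPM in B6, 1.32 and 2.26 CPM in B6-13D2, 0.998 and 1.14 CPM in D2-13B6, and 2.24 and 2.79 CPM in D2. The D2 segment gave -0.41 in the B6 background, which did not pass, and 1.16 in the D2 background, a difference of -1.57 (adjusted p = 0.0309). At Apom, an apolipoprotein gene (chr17:35131422-35132545), B6 had 6.99 and 6.93 CPM, B6-13D2 3.79 and 3.8 CPM, D2-13B6 7.78 and 8.55 CPM, and D2 8.18 and 8.7 CPM. B6-13D2 stood alone below the other 3 lines, and the difference between backgrounds was -0.903 (adjusted p = 0.0334). In Btnl7-ps, chr17:34536478-34537698 fell in both backgrounds, by different amounts (-1.27).

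Lower levels in B6-13D2 alone were also seen in BC051537 (1.92 and 1.9 CPM, against 2.57 to 4.43 CPM in the other lines), with a difference of -1.21, and in Agpat1, a gene of lipid synthesis (0.228 and 0.181 CPM, against 0.599 to 0.984 CPM), with a difference of -2.41. In Msh5, a gene of meiosis, the difference was -1.94. At chr17:34003364-34004297, near H2-K1, D2-13B6 had 0 counts in both samples and D2 had 4 and 3, so the fitted difference of -4.94 is no measure of size.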

How the results depend on the processing

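No named interval changed direction in any alternative: of 3263 values, 3004 stayed on the same side of the threshold and 259 lost it. Member calls moved as follows, and the cause was not tested. With DESeq2, H3K9me3 calls went from 22 to 13 in the separate lines, from 35 to 18 for D2 against B6 in the repeats, from 62 to 35 between backgrounds, and from 1 to 0 for the segment in each background. H3K27ac calls in the repeats went from 69 to 37, from 97 to 60 between backgrounds, from 26 to 10 and from 14 to 8 for the segment, and from 7 to 0 for the difference between backgrounds. With a mean of at least 20 counts, fewer members were tested and the H3K9me3 calls were 8, 14, 16, 2 and 0 in that order, and the 7 became 12. Library totals gave 0 and 0 H3K9me3 segment calls, and 51 and 17 in place of 26 and 7, and moved the median of all H3K27ac intervals in B6-13D2 against B6 from -0.06 to -0.19. With no filter, the H3K9me3 segment calls were 0 and 0, and the 7 became 4. RLE scaling moved no member count by more than 1.5 times.

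Counted singly, the H3K27ac repeats gave 43 for 26 and 20 for 7. With the replicate block the numbers were 44 and 20, and for H3K9me3 the block gave 2 and 0 segment calls in place of 1 and 1. Same-numbered samples correlated at -0.0697 to 0.155, so the numbers pair no samples. The averaged segment comparison, added after the data were seen, went from 3 to 0 for H3K9me3 and from 19 to 9 for H3K27ac with DESeq2, to 1 for H3K9me3 with the replicate block, and to 32 for H3K27ac counted singly, with and without it.

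Leaving out each library in turn gave 18 to 24 calls for H3K9me3 and 43 to 51 for H3K27ac in the separate lines. In the repeats it gave 18 to 40 (D2 against B6), 45 to 65 (backgrounds), 0 to 3 and 0 to 1 (segment in B6 and in D2) and 2 to 4 (averaged segment) for H3K9me3. For H3K27ac it gave 53 to 83, 77 to 102, 15 to 39, 10 to 15, 14 to 24, and 0 to 19 for the difference between backgrounds. The H3K9me3 interaction had 0 calls in each setting, with 6 members at an unadjusted p below 0.05 and 0 calls by DESeq2. Depth limits H3K9me3: 232 of 274 members were too low to test in the separate lines.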

Other observations

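H3K9me3 per kb was highest, over the separate lines, at chr17:34769176-34769700 in the class III stretch (33.6 CPM per kb), at chr17:34019900-34020418 and chr17:34013727-34014035 beyond H2-K1 (32.7 and 32.3), at chr17:35300590-35301230 between H2-D1 and H2-Q1 (32.2) and in Tnxa, a truncated tenascin gene (27.5). These members did not share a strain difference: chr17:34013727-34014035 was lower in D2 in the repeats by a log2 difference of -1.85 ± 0.41, and chr17:35300590-35301230 was higher by 0.87 ± 0.27. Repeats cover 83.31% of the latter.

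Some members lost H3K27ac and gained H3K9me3 or the reverse between the separate lines. Of 19 H3K9me3 intervals that overlap a tested H3K27ac interval, 5 were called for both marks, 4 of them in opposite directions, at Gm4152, H2-Eb1, H2-Eb2 and chr17:35280086. Over all intervals 29.0% of 23647 such pairs were called for both, 66.0% of them in opposite directions. The interval of Ddx39b was higher in D2 for both. The H3K9me3 intervals of Gm4152, H2-Eb2 and Ddx39b reached the count minimum in D2 alone, which bears on their direction, so nothing is read from the count of opposite pairs. Between backgrounds in the repeats, 36 of 126 members tested for both marks were called for both, 32 in the same direction and 4 in opposite directions. Over all intervals 15.5% of 78531 were called for both, 52.2% of them in the same direction. Many of those H3K9me3 calls also reached the minimum in their high background alone, so nothing is read from that count either.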
